A study of Mus musculus with 10 samples.

Results

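Krüppel-like factor 3 (KLF3) peaks inside introns that no KLF1 peak overlapped were examined in mouse erythroid cells. They were the entries of the authors' KLF3 peak list annotated as intron whose interval shared no base with any entry of the KLF1 list. This gave 498 peaks of 838 intron peaks and of 4579 KLF3 peaks in all. The 498 listings cover 484 distinct intervals, because the authors listed some intervals more than once with different summits. The nearest start sites belong to 471 genes. The sites were chosen by measured values, namely a KLF3 peak call in an intron and the absence of an overlapping KLF1 call, so their enrichment and their distance from KLF1 are given as description only.

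KLF3 is a zinc finger repressor that recruits CtBP corepressors. KLF1 is the main activator of the family in red cell precursors, and it turns on Klf3 itself. Both recognise GC-rich and CACCC-type elements, so a KLF3 site without a KLF1 call contrasts with those where both factors were called. KLF1 was mapped in another line, so its absence from these sites in the KLF3 cells was not tested. Introns close to a start site often hold regulatory elements.

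The KLF3 sites came from 1 chromatin immunoprecipitate of J2E-KLF3-ER cells (clone C) with its input. J2E is an immortalised erythroid line from fetal liver, and the KLF3-ER transgene encodes KLF3 fused to an estrogen receptor domain that tamoxifen activates; the antibody was directed at that receptor. The KLF1 sites came from 1 immunoprecipitate of K1-ER erythroblasts (clones A and C), which lack KLF1 and carry a tamoxifen-inducible KLF1-ER transgene, with its input. Both cell lines were induced with 200 nM 4-hydroxytamoxifen for 3 hours, and each library was a pool of 3 replicates. The lists therefore differ in line, antibody and factor at the same time, and KLF3 binding was seen in 1 clone that carries the transgene beside the resident Klf3. Newly made RNA, labelled with 4-thiouridine (4sU) for 30 minutes, came from 3 J2E-KLF3-ER libraries (clones A, C and E, with tamoxifen) and 3 J2E libraries without a transgene, of which 2 received tamoxifen and the third vehicle. The RNA table holds 1 FPKM value (fragments per length of transcript and depth of library) per group, so no spread between libraries can be shown and depth is unknown. No J2E-KLF3-ER library without tamoxifen was analysed here, so activation of the fusion and differences between lines cannot be told apart. The erythroid identity was visible in the RNA: all 9 erythroid marker genes in the table were tested, with sums of 413 FPKM in J2E-KLF3-ER and 582 FPKM in J2E. Lymphoid markers summed to 0.739 FPKM in J2E-KLF3-ER and 0.849 FPKM in J2E, and mast cell markers to 0.144 FPKM in J2E-KLF3-ER and 0 FPKM in J2E, with Mcpt8 and Fcer1a at 0 in both. The 6 myeloid markers summed to 23.7 FPKM in J2E-KLF3-ER and 30.8 FPKM in J2E, mostly Csf1r. The 5 megakaryocyte markers reached 187 FPKM in J2E-KLF3-ER and 166 FPKM in J2E, mostly Pf4 and Itga2b. Their part in the results was not tested.

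Sequence of the intron sites themselves was not used here, since no genome of their build (mm9) was at hand. The promoters next to some of them hold CCNCNCCC (N is any base), a loose pattern for the GC-rich elements that KLF factors recognise. Shown here are the start-site windows of 4 genes that had an unshared intron site and also a KLF3 promoter summit inside the window. They are the corepressor gene Sin3a, the gene with most such sites, and Zbtb7a, Erf and Tagln2, whose RNA was lower in J2E-KLF3-ER. The 4 are examples and not all such genes: Mir22hg, also lower, had a summit 45 bp after its start and is not shown. Each window runs from 250 bases before to 50 after a RefSeq start on GRCm38.p6, 5′ to 3′ on the gene's strand, and capitals mark CCNCNCCC on either strand, overlapping matches included.
Zbtb7a (chr10:81136021-81136320, plus strand): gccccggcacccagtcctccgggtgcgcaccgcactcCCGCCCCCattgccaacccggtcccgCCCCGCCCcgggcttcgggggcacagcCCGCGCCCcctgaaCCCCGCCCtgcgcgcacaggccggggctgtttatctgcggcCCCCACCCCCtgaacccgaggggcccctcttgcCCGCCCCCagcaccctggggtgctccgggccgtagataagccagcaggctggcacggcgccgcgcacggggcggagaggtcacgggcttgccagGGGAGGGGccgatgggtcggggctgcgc
Sin3a (chr9:57076126-57076425, plus strand): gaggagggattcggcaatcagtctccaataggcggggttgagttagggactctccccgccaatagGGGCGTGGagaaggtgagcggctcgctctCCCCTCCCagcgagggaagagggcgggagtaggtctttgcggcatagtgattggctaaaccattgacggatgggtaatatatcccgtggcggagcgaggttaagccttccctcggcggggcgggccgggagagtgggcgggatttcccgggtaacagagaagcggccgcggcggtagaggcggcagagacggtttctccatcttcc
Erf (chr7:25250709-25251008, minus strand): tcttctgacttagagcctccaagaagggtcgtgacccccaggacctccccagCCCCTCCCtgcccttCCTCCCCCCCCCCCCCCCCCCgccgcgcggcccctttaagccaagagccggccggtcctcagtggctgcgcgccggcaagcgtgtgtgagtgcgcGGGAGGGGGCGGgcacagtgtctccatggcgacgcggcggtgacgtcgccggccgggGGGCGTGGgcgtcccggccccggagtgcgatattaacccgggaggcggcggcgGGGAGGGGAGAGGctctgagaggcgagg
Tagln2 (chr1:172499996-172500295, plus strand): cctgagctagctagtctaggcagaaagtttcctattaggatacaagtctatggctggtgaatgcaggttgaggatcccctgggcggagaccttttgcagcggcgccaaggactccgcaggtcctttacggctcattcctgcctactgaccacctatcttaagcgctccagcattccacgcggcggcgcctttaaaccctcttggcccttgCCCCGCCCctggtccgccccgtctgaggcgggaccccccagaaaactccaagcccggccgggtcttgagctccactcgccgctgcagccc
The Zbtb7a window held 8 matches and 2 GATA-type matches (AGATAA or TGATAA), the Sin3a window 2, the Erf window 18, many of them in its run of C, and the Tagln2 window 1. In the KLF3 list, on mm9, the promoter summits lay 15 bp after the start site for Zbtb7a and 99 bp, 39 bp and 16 bp before it for Sin3a, Erf and Tagln2. RefSeq windows were matched by symbol for 342 of the 471 genes with an unshared intron site.

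CCNCNCCC was common in these promoters whether or not KLF3 was called there. It stood in 133 of 165 windows (80.6%, 95% exact interval 73.7 to 86.3) of genes with an unshared intron site and a KLF3 promoter peak. Genes with an unshared intron site and no KLF3 promoter peak had it in 205 of 295 windows (69.5%, 63.9 to 74.7). Genes with a KLF3 promoter peak and no such intron site had it in 82.8% of windows, and all 32851 windows had it in 49.5%. The 165 windows belong to 124 genes and the 295 windows to 218. Windows of 1 gene are not independent, so these intervals may be too narrow. The GATA-type motif was found in 6.06%, 10.8% and 8.49% of windows of those 3 gene groups and in 18.6% of all windows. The stricter CCACACCC stood in 7.27%, 3.39% and 5.32% of windows of the same groups and in 3.56% of all windows. None of the 4 printed windows held CCACACCC, and the unprinted Mir22hg window held 1 match. A match is a stretch of letters and not a measured binding site.

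Most unshared KLF3 intron sites lay just downstream of a start site, not deep inside the gene. The median distance from summit to start site was 690.5 bp (95% exact interval of the median 616 to 775), and 304 of 498 summits (61.0%, 95% exact interval 56.6 to 65.4) lay within 1000 bp, each of them downstream. Intron KLF3 peaks that shared a KLF1 peak had a median of 926.5 bp (752 to 1166) and 177 of 340 (52.1%, 46.6 to 57.5) within 1000 bp. KLF1 intron peaks without KLF3 had a median of 10609 bp (9344 to 12598), with 115 of 1093 (10.5%, 8.76 to 12.5) within 1000 bp. Both sets of KLF3 intron peaks lay mainly near starts, and KLF1 intron peaks without KLF3 lay further in. Each list is 1 library, so the intervals cover counting error only and no test between lists was made. KLF3 promoter peaks without KLF1 had a median distance of 82 bp, and 16.6% of them were downstream of the start site. All 2110 of them lay within 1000 bp. The 177 and 115 summits within 1000 bp in the other intron sets were also all downstream. These directions and distances may follow from the authors' annotation classes, whose rules are not given, so they are description only.

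**Figure D1:**
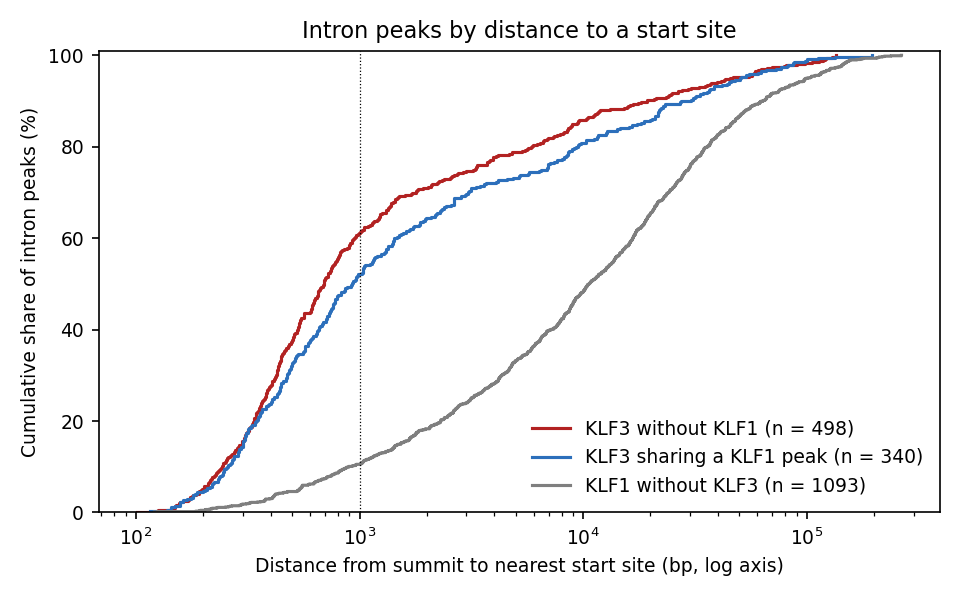
Cumulative share of intron peaks (vertical axis, percent) by the distance from their summit to the nearest start site (horizontal log axis, bp), for 498 KLF3 peaks without KLF1, 340 KLF3 peaks sharing a KLF1 peak and 1093 KLF1 peaks without KLF3. At 1000 bp (dotted line) the KLF3 curves have reached 61.0% and 52.1% and the KLF1 curve 10.5%.

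Most summits also lay near the 5′ end of the RNA table's locus, which can span more than 1 gene. Of the 498 summits, 479 lay inside the RNA table's locus of the assigned gene, at a median of 3.61% of the way from its 5′ to its 3′ end, and 307 of these 479 (64.1%) lay in the 5′-most 10% of the locus. Of the 479, 12 lay over 1000 bp into the locus but within 1000 bp of an assigned start site, that is, beside a start inside the locus. Such a start need not be internal to its gene. The Dcp1b site lay 299 bp from its start but 583257 bp into a locus of 629320 bp. Of the remaining 19, 18 lay in the locus of a gene other than the assigned one and 1 in a joint row of several genes that names the assigned gene. The 18 include 2 sites in Kalrn assigned to Umps (at 34095982 to 34096301 and 34036791 to 34037009 on chromosome 16), 2 listings of 1 interval in Igf1r, the gene of a growth factor receptor, assigned to Pgpep1l, and sites in Plekhg5 and Itsn1 assigned to Tnfrsf25 and Atp5o. Sites far from a start were a minority: 71 (14.3%, 11.3 to 17.6) lay over 10000 bp away. Among the most distant with a tested gene were those in Pbx3, a homeobox factor gene, at 122305 bp, in Trappc9 at 113037 bp and in Chd9, a chromatin remodeller gene, at 79476 and 80337 bp. Those genes and positions were chosen after their values were seen.

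Enrichment, the authors' fold value per peak, was modest at these sites. The median was 6.71, with a range of 3.69 to 23.1, against 8.08 and a range of 3.28 to 33.3 at intron peaks shared with KLF1. The median of the whole KLF3 list was 7.94, which 147 of the 498 sites reached; 4 of the shared intron peaks but none of the unshared ones stood among the 100 highest peaks. Enrichment hardly varied with distance: medians were 6.42 under 300 bp (78 sites), 6.49 from 300 to 1000 bp (226 sites), 7.14 from 1000 to 10000 bp (123 sites) and 6.71 beyond (71 sites). Median interval widths were 238 bp at unshared and 302.5 bp at shared intron sites.

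Of the 10 highest unshared sites 5 lay within 1000 bp of a start, and 9 of the 10 are described here. The first, in Cetn3, which encodes the centriole protein centrin 3, had an enrichment of 23.1 (chromosome 13, 81922343 to 81922893, 429 bp from the start, rank 121 of the KLF3 list). Rilp, the gene of a Rab-interacting lysosomal protein, had 19.5 (chromosome 11, 75324093 to 75324424, 690 bp). Gng8, a G protein subunit gene, had 18.0 (chromosome 7, 17480335 to 17480675, 3365 bp). The site in Zswim6 had 16.5 and lay 58761 bp from the start (chromosome 13, 108621371 to 108621642). Gtpbp6 had 16.2 (chromosome 5, 110536409 to 110536989, 431 bp). The site assigned to Tnfrsf25, which encodes a death receptor, had 16.0 and lay 8226 bp upstream of its start, inside Plekhg5 (chromosome 4, 151481707 to 151482356). Baz1a, which encodes a subunit of a chromatin remodelling complex, had 15.6 (chromosome 12, 56085723 to 56086128, 1451 bp). Nup54, a nuclear pore gene, had 15.4 (chromosome 5, 92863561 to 92863818, 530 bp), and Aktip 15.3 (chromosome 8, 93657781 to 93658147, 1437 bp). Of the genes of the 10 highest sites 7 were tested in the authors' deposited table. Of these 7, 0 passed at q below 0.05, and 2 had an unadjusted p below 0.05. Of all tested genes 1.90% fell and 0.821% rose at that q, and 7.47% fell and 7.93% rose at that p. Cetn3 stood at 9.93 FPKM in J2E-KLF3-ER and 5.62 FPKM in J2E (log2 difference 0.82, q = 0.226 in the authors' deposited table). Gtpbp6 stood at 11.6 FPKM in J2E-KLF3-ER and 18.5 FPKM in J2E (-0.68, q = 0.313 in the authors' deposited table), so those 2 genes had opposite signs. The 3 lowest enrichments were 3.69, 3.80 and 3.80, the last in Lyn, the gene of a SRC-family kinase (chromosome 4, 3605383 to 3605585, 297 bp); the others were assigned to an unnamed gene model and a small RNA.

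Most of these sites stood far from any KLF1 peak. The median edge-to-edge distance to the nearest KLF1 peak was 68973.5 bp, with quartiles of 19808.8 and 245486 bp, and 46 sites (9.24%, 6.84 to 12.1) had a KLF1 peak within 1000 bp. KLF3 promoter peaks without KLF1 had a median of 91576 bp, with 4.45% within 1000 bp of a KLF1 peak. KLF1 intron peaks without KLF3 had a median of 49284 bp to a KLF3 peak, with 5.03% within 1000 bp. The KLF1 peak beside the 46 unshared KLF3 intron sites was a promoter peak in 33 cases, an intron peak in 12 and a distal peak in 1. It shared its assigned gene with the KLF3 site in 44. The unshared intron sites nearest to a KLF1 peak were those of Csda, a cold shock domain gene, with a KLF1 peak 34 bp away, of the LIM domain gene Crip2 at 156 bp, of Vat1 at 172 bp, of Nfe2l2, which encodes the oxidative stress factor NRF2, at 197 bp and of Tob2 at 231 bp. Just outside the rule were intron peaks with KLF1 overlaps of 5 bp in Ctnna1, 16 bp in Fam214b, 47 bp in Zfand2b, 102 bp in Mcm9 and 105 bp in Baz2a. The KLF1 peaks beside the 5 nearest sites had enrichments of 4.97 to 22.0. Of the genes of those 5 sites 0 were called in the authors' deposited table, and 3 had an unadjusted p below 0.05. Of all tested genes 1.90% fell and 0.821% rose at q below 0.05, and 7.47% fell and 7.93% rose at that p. So few genes allow no comparison with these shares. The closest in q was Vat1, at 7.60 FPKM in J2E-KLF3-ER and 11.2 FPKM in J2E, a log2 difference of -0.55 with q = 0.189 in the authors' deposited table.

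Of the 471 genes, 447 had 1 listed site, 22 had 2, Zbtb7a had 3 and Sin3a had 4. Sin3a encodes the scaffold of a histone deacetylase corepressor complex. Its sites fall into 2 intervals on chromosome 9. The interval from 56920516 to 56921761 had summits 957, 1389 and 1719 bp after a first start site, with enrichments of 5.68, 5.23 and 10.7. The interval from 56924436 to 56924983 had a summit 663 bp after a second start site 4336 bp downstream, with 13.0. A KLF3 promoter peak (8.49) lay at the second start and none was listed at the first. The closest KLF1 peak was 538286 bp away. The spacing of the RefSeq windows is also 4336 bp, and the printed window belongs to the second start.

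Zbtb7a encodes a zinc finger repressor that silences fetal globin in erythroid cells. Its intron sites covered 80600034 to 80600610 on chromosome 10, with summits 1199 and 1494 bp from the start (8.42 and 5.23), and 80600964 to 80601349, with a summit at 2214 bp (8.71). A KLF3 promoter peak at the start (5.82) was shared with KLF1, and KLF1 peaks lay on either side, the nearest edge 952 bp from the first intron interval. At Zbtb7a both factors were called at the start; the 2 KLF3 intron intervals overlapped no KLF1 peak, and a KLF1 intron peak (9.14) lay further in, 5617 bp from the start. Myc, which encodes a growth-promoting transcription factor, had no KLF3 or KLF1 peak other than 2 summits of 1 intron interval (61818409 to 61818860 on chromosome 15), at 1599 and 1916 bp from the start, with 5.23 and 4.80. Gata2, the gene of an early hematopoietic GATA factor, had 4 KLF3 peaks and no KLF1 peak; 1 was an intron site 4791 bp from the start (8.24).

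**Figure D2:**
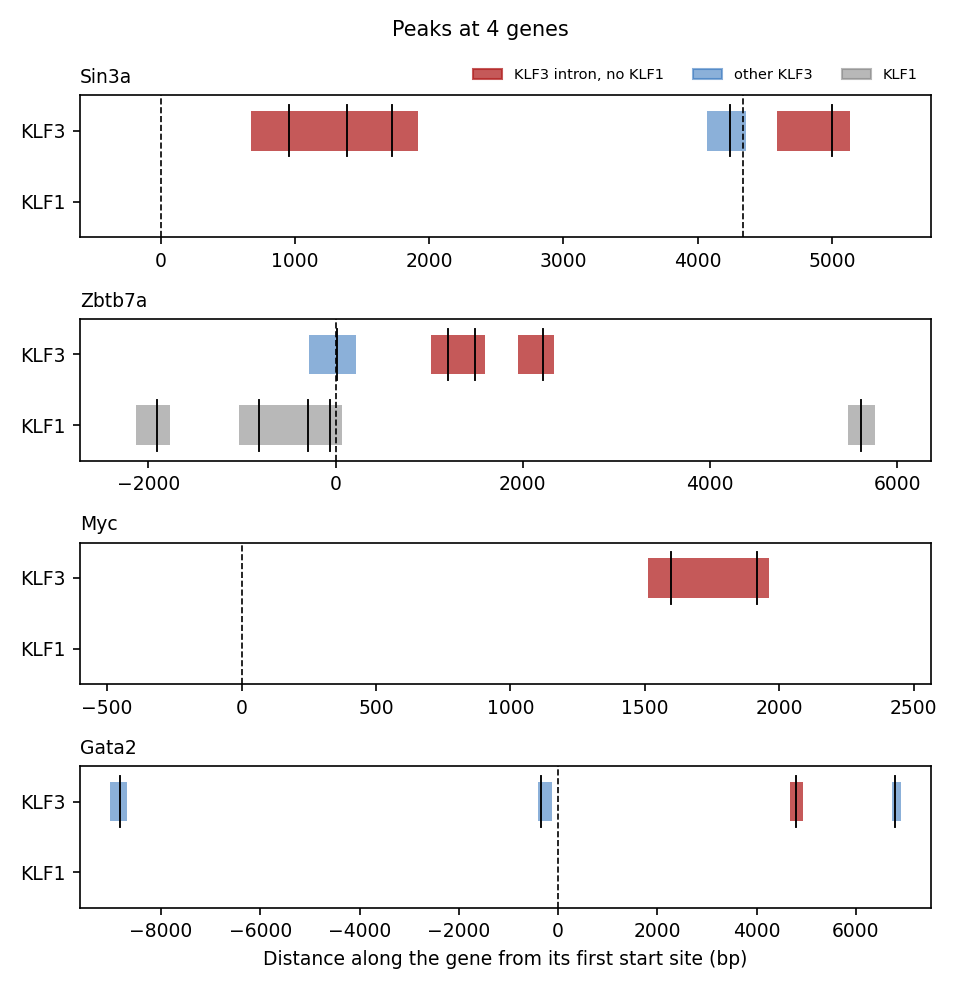
Peaks at Sin3a, Zbtb7a, Myc and Gata2 to scale within each panel, by distance in bp along the gene from its first start site (dashed lines mark start sites, black ticks summits). Red boxes are KLF3 intron intervals without KLF1, blue boxes other KLF3 intervals and grey boxes KLF1 intervals. The KLF1 row is empty for Sin3a, Myc and Gata2.

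Many genes with an unshared intron site had KLF peaks elsewhere. A KLF3 promoter peak was also assigned to 163 of the 471 genes (34.6%, 30.3 to 39.1), and a KLF1 peak somewhere to 115 (24.4%, 20.6 to 28.6), of which 44 had it at the promoter. Genes with a shared intron peak had a KLF3 promoter peak in 115 of 308 cases (37.3%, 31.9 to 43.0) and a KLF1 promoter peak in 77 (25.0%, 20.3 to 30.2). Of the 392 genes with an unshared intron site that the authors tested for RNA, 37.5% had a KLF3 promoter peak, against 25.4% of all 9619 tested genes. A KLF1 peak somewhere was assigned to 25.8% of the 392 and 19.1% of all tested genes. For a KLF1 promoter peak the shares were 9.95% and 8.68%, which are close. Genes with a shared intron peak all had a KLF1 peak, as the overlap rule requires one.

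The genes were mostly expressed, and few changed. Of the 471 genes, 392 (83.2%) were tested in the authors' deposited table, 76 were not, 2 had too little data and 1 had no row of its own. The tested share of all genes was 41.3%. Median levels of the 392 were 15.1 FPKM in J2E-KLF3-ER and 15.2 FPKM in J2E, and those of all tested genes 12.6 FPKM in J2E-KLF3-ER and 12.4 FPKM in J2E. At the authors' q below 0.05, 11 of the 392 fell (2.81%, 95% exact interval 1.41 to 4.97), where 1.90% of all tested genes fell, and 1 rose (0.255%, 0.00646 to 1.41), where 0.821% of all tested genes rose. The falling share lay near that of all tested genes, whose value was inside its interval. At q below 0.1, 13 fell and 3 rose, where 2.87% of all tested genes fell and 1.69% rose; at q below 0.01, 6 fell and 1 rose, where 1.15% fell and 0.353% rose. At an unadjusted p below 0.05, 30 fell and 28 rose, against 7.47% and 7.93% of all tested genes. Genes with a KLF3 intron peak shared with KLF1 fell in 19 of 252 cases (7.54%, 4.60 to 11.5) and rose in 1. The median log2 fold change was -0.01 over the 392 genes and 0.03 over all tested genes, with quartiles of -0.20 and 0.18 for the 392. In whole-culture RNA, fewer cells of a type and less RNA per cell cannot be told apart.

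The rising gene was Klf3, for which reads of the transgene and of the resident gene cannot be told apart. It stood at 180 FPKM in J2E-KLF3-ER and 7.46 FPKM in J2E in the authors' deposited table, with a log2 difference of 4.59. That value checks the label of the line. Its unshared intron site lay 8208 bp from the start (chromosome 5, 65202883 to 65203082, enrichment 6.71).

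The falling genes included several transcription regulators, and the q-values of all 11 lay between 0.00408 and 0.0396 in the authors' deposited table. Myc fell to 3.18 FPKM in J2E-KLF3-ER, against 9.67 FPKM in J2E (log2 difference -1.60, q = 0.00408, all in the authors' deposited table). Erf, an ETS-family repressor gene, stood at 5.08 FPKM in J2E-KLF3-ER and 12.6 FPKM in J2E (log2 difference -1.31, q = 0.00408, in the authors' deposited table). Zbtb7a stood at 26.7 FPKM in J2E-KLF3-ER and 51.3 FPKM in J2E (-0.94). Klf16, a family member that acts as a repressor, stood at 12.3 FPKM in J2E-KLF3-ER and 23.4 FPKM in J2E (-0.92), and Gata2 at 67.4 FPKM in J2E-KLF3-ER and 99.0 FPKM in J2E (-0.55); the values in brackets are log2 differences of the authors' deposited table. Maml3, a co-activator gene of NOTCH signalling, stood at 12.1 FPKM in J2E-KLF3-ER and 18.0 FPKM in J2E (-0.57). The Klf16 site lay 7395 bp from the start at 80032543 to 80032753 on chromosome 10 (4.98), and that of Erf 1314 bp from it at 26034284 to 26034522 on chromosome 7 (4.39).

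The other falling genes had varied roles. Rce1, the gene of a protease that trims prenylated proteins, stood at 3.58 FPKM in J2E-KLF3-ER and 9.10 FPKM in J2E (log2 difference -1.34, q = 0.0231, in the authors' deposited table). Mir22hg, the host gene of the microRNA miR-22, stood at 3.15 FPKM in J2E-KLF3-ER and 7.55 FPKM in J2E (-1.26), and Tagln2, an actin-binding protein gene, at 36.9 FPKM in J2E-KLF3-ER and 72.2 FPKM in J2E (-0.97), with log2 differences of the authors' deposited table in brackets. Oasl1, a gene of the interferon response, stood at 25.1 FPKM in J2E-KLF3-ER and 41.5 FPKM in J2E (-0.72). Fem1c, which encodes a substrate receptor of a ubiquitin ligase, stood at 14.4 FPKM in J2E-KLF3-ER and 22.9 FPKM in J2E (-0.67, q = 0.0287 in the authors' deposited table). The sites of Mir22hg and Tagln2 lay 902 and 962 bp from their starts, with enrichments of 7.49 and 10.1. The 2 Oasl1 sites lay 3214 and 3722 bp from its start, and that of Fem1c 764 bp. Just short of the threshold, with q below 0.1, were Mvp, Rasgrp2, Cd47 and Epb4.9 in the authors' deposited table, the first pair higher and the second lower in J2E-KLF3-ER; Mvp, Rasgrp2 and Cd47 were named after their values were seen. Chromosomes differed in their median log2 fold change, from -0.07 to 0.22; after that median was taken off, the 11 falling genes stood between -1.74 and -0.51.

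**Figure D3:**
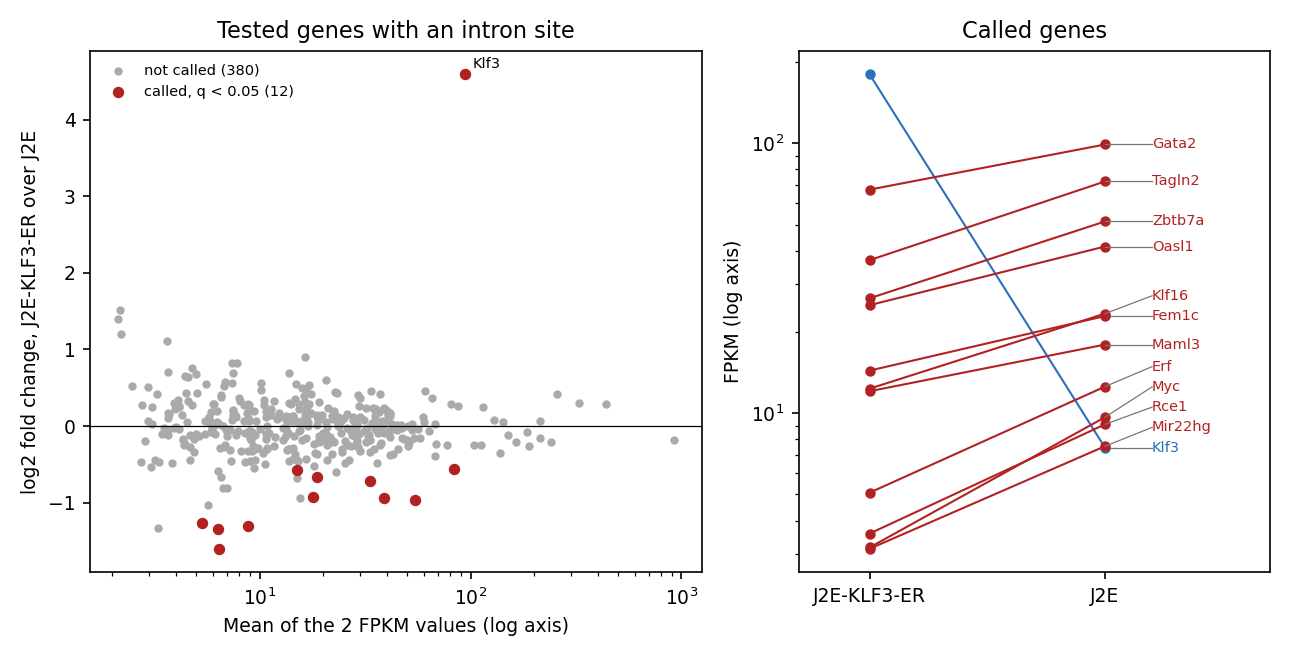
Left, log2 fold change (J2E-KLF3-ER over J2E) against the mean of both FPKM values for the 392 tested genes with an unshared KLF3 intron site, with the 12 called genes in red. Right, FPKM of the 12 called genes in J2E-KLF3-ER and J2E, each point the authors' pooled value without error, with the 11 lower in J2E-KLF3-ER in red and Klf3 in blue; thin grey lines join the names to their J2E points.

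Of the 11 falling genes, 8 also had a KLF3 promoter peak. Of the 147 tested genes that also had a KLF3 promoter peak 8 fell (5.44%), and of the 245 without 3 fell (1.22%): Maml3, Myc and Oasl1. Over all tested genes 1.90% fell, with 62 of 2446 (2.53%) among those with a KLF3 promoter peak and 121 of 7173 (1.69%) among those without. With the nearest unshared site over 1000 bp from the start 7 of 120 fell (5.83%), and with it within 1000 bp 4 of 272 (1.47%). Of the 19 tested genes with 2 or more listed sites 4 fell, namely Maml3, Myc, Oasl1 and Zbtb7a; for Maml3 and Myc both summits were in 1 interval. Sin3a, with 4 sites, was not called, at 44.1 FPKM in J2E-KLF3-ER and 45.5 FPKM in J2E in the authors' deposited table (log2 fold change -0.05, q = 0.929). Genes with a KLF1 peak fell in 3 of 101 cases (2.97%) and those without in 8 of 291 (2.75%); of all tested genes with a KLF1 peak 4.08% fell. These splits overlap, rest on few genes and were made after values were seen; the differences were not tested.

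The KLF1 list also names, for each peak, the nearest genes that the authors hold as up or down between K1 and K1-ER cells, which allowed a look at KLF1-responsive genes. The header does not give the direction; known KLF1-activated genes (Slc4a1, Alas2, E2f2 and Epb4.9) stand in the up list. The lists are partial, since they hold only genes nearest to some KLF1 peak. Of the 392 tested genes with an unshared intron site 30 were listed up (7.65%, 5.22 to 10.7), against 4.16% of all tested genes, and 52 of 252 (20.6%, 15.8 to 26.2) of those with a shared intron peak. All 252 had a KLF1 peak by the overlap rule, against 25.8% of the 392. The shared and unshared shares are therefore not on equal terms, and no conclusion is drawn from their difference. Listed down were 7 of 392 (1.79%), against 0.956% of all tested genes. Zbtb7a, Klf16, Erf and Mir22hg were in the up list and among the falling genes. They make 4 of the 30 (13.3%), and 23 of the 30 had a log2 fold change below 0 in the authors' deposited table, with a median of -0.24. Of all 400 tested genes in the up list 52 fell (13.0%) and 273 (68.2%) lay below 0, with a median of -0.19, so the falling share of the 30 was near that of the list as a whole. Klf1 itself was called lower in J2E-KLF3-ER, with a log2 difference of -1.14 in the authors' deposited table, and its part in these counts was not tested. Cdkn1a, the p21 cell cycle inhibitor gene, Ddit3, a stress response factor gene, and the adducin gene Add2 were in the up list but not called, where the authors' deposited table gives log2 values of -0.14, -0.23 and -0.18.

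By gene list, unshared intron sites were found most among erythroid transcription factor genes. Of 18 tested list members 7 had such a site (38.9%), where 4.08% of all tested genes had one. They were Gata2, Zbtb7a and Myc, which fell, and Zfpm1, Myb, Cbfa2t3 and Lyn, which did not pass. Zfpm1, which encodes the GATA1 cofactor FOG1, stood at 45.3 FPKM in J2E-KLF3-ER and 51.1 FPKM in J2E in the authors' deposited table (log2 fold change -0.18). Myb and Cbfa2t3, a corepressor gene of the TAL1 complex, had log2 differences of -0.19 and 0.11 (from the authors' deposited table), and Lyn, a kinase gene kept in this list, -0.30. The median log2 fold change was -0.30 for the 7 and -0.25 for the 18, of which 5 fell and none rose. Of all tested genes 1.90% fell and 0.821% rose.

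Other lists held fewer. In the KLF and SP family, 2 of 14 tested genes, Klf3 and Klf16, had such a site, and so had the untested Klf8 on the X chromosome. Of the 14, 4 fell and 2 rose, where 1.90% of all tested genes fell and 0.821% rose. Klf1, counted in the erythroid list and without such a site, also fell, to 55.6 FPKM in J2E-KLF3-ER, against 122 FPKM in J2E (log2 difference -1.14, q = 0.00408 in the authors' deposited table). Of 17 red cell membrane genes, Add2 and the dematin gene Epb4.9 had one. Epb4.9 stood at 5.07 FPKM in J2E-KLF3-ER and 8.05 FPKM in J2E in the authors' deposited table (log2 fold change -0.67, q = 0.0795). Of 9 apoptosis genes, the survival genes Bcl2l1 and Mcl1 had sites, at log2 values of 0.41 and -0.12 in the authors' deposited table. Of 10 cholesterol genes 2 had a site, among them the regulator gene Srebf1, at a log2 value of 0.48 in the authors' deposited table; 3 of the 10 rose, and none of those 3 had a site. Sin3a was the corepressor gene of 14 with a site, and Cdkn1a the cell cycle gene of 17. Of 51 chromatin genes 3 had a site (Chd2, Chd9 and Kdm4a), at log2 values from 0.02 to 0.06 in the authors' deposited table, beside the untested Arid5a. None of 17 heme and iron genes, 11 erythropoietin signalling genes and 17 autophagy genes had one, although 6, 7 and 10 genes of those lists had a KLF3 promoter peak. Among these 10 lists, no gene with an unshared intron site was called apart from Klf3 and Klf16. The lists were chosen with earlier results in view and overlap the results above, so the counts are a description.

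**Figure D4:**
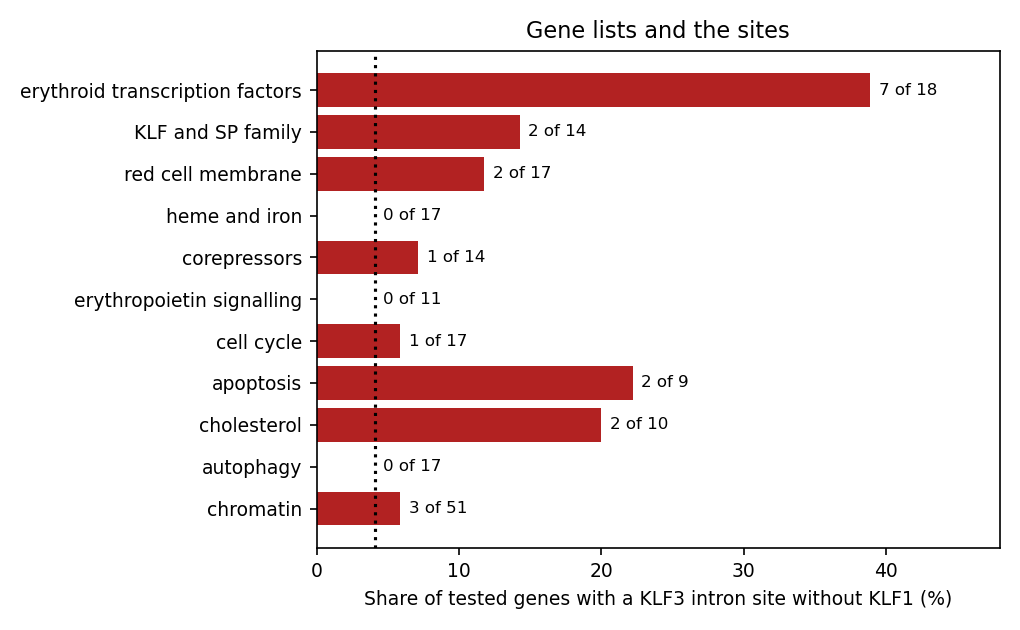
Share of tested genes (horizontal axis, percent) that had a KLF3 intron site without KLF1, for 11 gene lists, with counts beside the bars. The dotted line marks the 4.08% of all tested genes with such a site; the erythroid transcription factor bar reaches 38.9%, and 3 lists have none.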

How the data were processed

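The RNA comparison covered 6 libraries and the binding data 4. Per the submitters' processing notes the genome build is mm9. TopHat2 2.0.10, MACS2 and MACS 1.4.2 are named there without a role. Per the file headers, the authors deposited an enrichment (fold ratio) per peak with summit, annotation class and nearest start site, and for RNA an FPKM value per group, a log2 fold change (J2E-KLF3-ER over J2E), a test statistic (score), a q-value and its p-value. Depth is unknown. Adjusting the authors' p-values by Benjamini-Hochberg over 9619 tested genes gave their q-values within 5.26e-07, and genes at q below 0.05 are called. The smallest p-value was 5e-05, so many q-values are tied. The 45 tested genes at 0 FPKM in 1 group have no finite fold change and were left out of medians over all tested genes. The 93 blank rows were dropped, and 13 gene entries of the KLF1 list that had become dates were read back. Formaldehyde at 0.4% fixed the chromatin, per the labels' protocols, before it was sheared to about 200 to 400 bp, and RNA was labelled with 500 µM 4sU.

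Peaks overlapped at 1 shared bp. The deposited distance is start site minus summit. Genes are the authors' nearest start site. Shares have exact 95% intervals (Clopper-Pearson; order statistics for medians) that reflect counting error alone. Peaks and genes are not replicates, so no test was run on them beyond the authors' own. Labels do not say whether RNA libraries were separate cultures, so the p-values may reflect technical spread alone. Named sites are the 10 highest, the 3 lowest, the 5 nearest on each side of the overlap rule and those of genes with 3 or more sites. Named genes are those called and those of the lists. Some items that the rule names, and 1 gene list, are not reported here. Members, lists and rules were chosen with earlier results of these data known. The planned fallback to the authors' q-values was used, because the table holds pooled values. Promoter sequences are RefSeq's on GRCm38.p6; no mm9 genome was used, so motifs inside the sites were not analysed here. Interval and overlap code was tested on simulated data. Alternatives were other overlap rules, distinct intervals, enrichment and q thresholds, an FPKM minimum and gene subsets. Calculations used matplotlib 3.10.9, statsmodels 0.14.6, SciPy 1.17.1, NumPy 2.4.6, pandas 2.3.3 and Python 3.11.15.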

Additional observations from a re-analysis of the deposited data

How the results depend on the processing

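With a KLF1 peak within 1000 bp also counted as shared, 452 sites remained and 30.3% of genes had a KLF3 promoter peak. Keeping only sites at or above the median enrichment of the KLF3 list left 147, with a median distance of 798 bp and 29.6% of genes with a promoter peak. Of their 119 tested genes 4 fell and 0 rose, where 1.90% of all tested genes fell and 0.821% rose. Falling genes numbered 6 of 392 at q below 0.01 (1.15% of all tested genes fell). They numbered 7 of 123 for sites over 1000 bp from the start and 3 of 245 without a KLF3 promoter peak, at q below 0.05. The last 2 settings also had fewer tested genes, 123 and 245, while q below 0.01 kept all 392. Rising genes numbered 3 at q below 0.1, where 1.69% of all tested genes rose, adding Rasgrp2 and Mvp; none was left without a promoter peak (0), or when Klf3 was left out (0), an alternative added after seeing the data. At an unadjusted p below 0.05 in the authors' test 30 genes of 392 fell and 28 rose, where 7.47% and 7.93% of all tested genes did. The other 29 combinations of result and setting stayed within 1.5 times of a count or inside the interval of a share or median; they include summit-based sharing, distinct intervals and stricter KLF1 peaks. Taking each gene whose locus holds the summit, added later, also gave 11 falling genes, of 447 tested. No paired analysis was possible because the RNA table holds 1 pooled value per group; for the same reason no replicate could be left out and no count tool run. The motif alternatives inside intron sites were not run, as no mm9 genome was used. Each binding list is 1 pooled library, and binding under the authors' thresholds was not analysed here.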
